A study of Mus musculus with 32 samples.

Results

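The genes described here are 10 markers of the stem cells at the base of the intestinal crypt: Lgr5, Olfm4, Ascl2, Smoc2, Slc12a2, Tnfrsf19, Cdca7, Rgmb, Prom1 and Lrig1. They were chosen by name as known crypt base stem cell markers, and all 10 were matched among the 54418 gene identifiers of the deposited count table. RNA came from mouse intestinal crypt cells that were stained for the epithelial marker CD326 and with the dye DAPI and sorted for high GFP. It was measured by 3′ digital gene expression in a high-throughput format. That method reads polyadenylated transcripts close to their 3′ ends. The 32 libraries form 8 groups of 4. The genotypes are wildtype (WT), PparD (Ppard-fl/fl), PparA (Ppara-null) and PparDA (both Ppard-fl/fl and Ppara-null), each on a control diet or a high-fat diet, and the strain label is C57BL6 in all of them. The sample labels name the Ppard allele as floxed, while the series' design text calls the mutants knockouts. The sources used here give neither the gene that drives GFP, nor a Cre, nor the age of the mice, nor the length of the diet.

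As background, crypt base stem cells divide continuously and are maintained by Wnt signals, which R-spondins amplify through Lgr receptors, by Notch contact with neighbouring Paneth cells, and by the exclusion of BMP signals from the crypt base. Several of the 10 genes are targets or modulators of these pathways. PPARα and PPARδ, the products of Ppara and Ppard, are nuclear receptors that bind fatty acids and switch on genes of fatty acid oxidation. The comparisons ask whether the stem cell markers differ with the diet, with the loss of either receptor, and with both.

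Library totals lay between 612672 and 724155 counts, and 11683 to 12212 genes had a count in each. Levels are given as CPM, a gene's counts relative to its library's total, after scaling by TMM, a method that evens out differences in library composition. Ppara and Ppard were too scarce for their counts to test the genotype labels. Ppara had 0 to 5 counts in any library, including 0 to 4 in the libraries labelled Ppara-null, and Ppard had 0 to 7. Numbers in the column names place the libraries in 4 runs of 8, each with every group once. Xist was at 466 to 931 CPM in runs 1 and 3 and at most 9.72 CPM in runs 2 and 4, while Ddx3y was at 0 in runs 1 and 3 and at 14.3 to 38.9 CPM in runs 2 and 4. Of 12 leukocyte markers none reached a mean of 2 CPM, and of 10 stromal and endothelial markers 5 had no count (Col3a1, Dcn, Lum, Tagln and Cdh5). All 10 stem cell markers passed the filter on low counts, which left 5872 genes. In bulk samples such as these, fewer cells of a type and less RNA per cell cannot be told apart.

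The markers were counted in every library, and the 8 groups differed past the threshold for 2 of them. The test of any difference among the 8 groups called 2 of the 10, Prom1 and Tnfrsf19, where 4.33% of the 5872 genes were called (edgeR quasi-likelihood test, adjusted p = 0.0073 for Prom1 and 0.032 for Tnfrsf19). With DESeq2 and with limma the count was also 2. At an unadjusted p under 0.05 there were 5 of 10 members, where 17.4% of all genes passed. The test called the 2 genes whose group means spread the most: the highest group mean was 2.55 times the lowest for Tnfrsf19 and 1.79 times for Prom1. For the other 8 genes this ratio ran from 1.2 for Olfm4 to 1.73 for Ascl2.

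**Figure D1:**
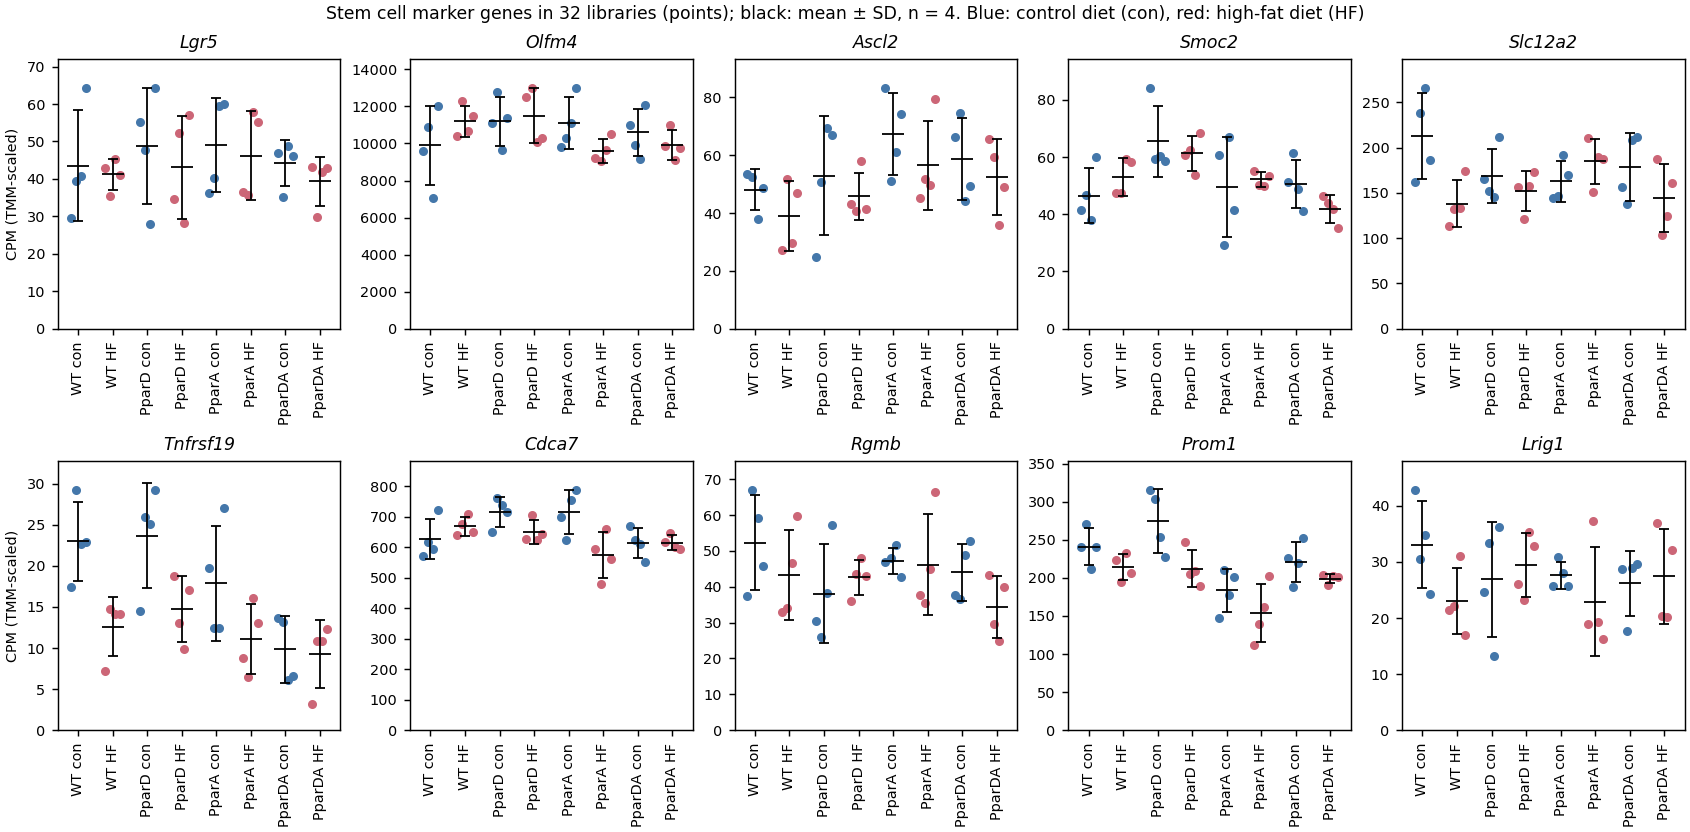
Level of each of the 10 markers (y axis, TMM-scaled CPM from 0) in the 8 groups (x axis; con, control diet; HF, high-fat diet). Each point is 1 library and the black bar gives the mean ± SD of 4 libraries. Lgr5 keeps group means between 39.4 and 49.0 CPM, while Tnfrsf19 runs from 9.31 CPM in PparDA on the high-fat diet to 23.7 CPM in PparD on the control diet.

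Among the receptors and membrane regulators, Lgr5, the R-spondin receptor that defines these cells (ENSMUSG00000020140, GRCm38 chromosome 10, 115450311 to 115587780, minus strand), had the highest p for any difference among the 8 groups. Under the control diet its mean CPM was 43.5 ± 14.8 in WT, 48.8 ± 15.4 in PparD, 49.0 ± 12.5 in PparA and 44.2 ± 6.12 in PparDA (SD, n = 4 in this and all later group values). With high fat it was 41.2 ± 4.18 in WT, 43.1 ± 13.8 in PparD, 46.2 ± 11.9 in PparA and 39.4 ± 6.52 in PparDA. No neighbours in the order of the 8 groups were further apart than the larger of their SDs, and the adjusted p for any difference was 0.97. A gene on the opposite strand, A930009A15Rik, lies within Lgr5 and had up to 68 counts in a library. It spans 115569986 to 115582448, away from the 3′ end of Lgr5 at 115450311, near which this method reads. Whether the counting used strand is not given, and sharing of reads between these genes was not tested.

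Lrig1, a membrane protein that restrains ErbB receptors (ENSMUSG00000030029, chromosome 6, 94604529 to 94700158, minus strand), had control-diet means of 33.1 ± 7.79 in WT, 26.9 ± 10.3 in PparD, 27.6 ± 2.47 in PparA and 26.2 ± 5.76 in PparDA (CPM). The high-fat means were 23.0 ± 5.9 in WT, 29.4 ± 5.67 in PparD, 22.9 ± 9.67 in PparA and 27.4 ± 8.46 in PparDA, so the highest was WT with the control diet and the lowest PparA with high fat. Lrig1 overlaps Slc25a26, on the other strand, which had up to 6 counts. This overlap, up to 94604672, is at the 3′ end of Lrig1, so reads of these genes may not be separated. Rgmb, a co-receptor of BMP signalling (ENSMUSG00000048027, chromosome 17, 15803188 to 15831039, minus strand), stood at 52.3 ± 13.2 in WT, 38.0 ± 13.8 in PparD, 47.3 ± 3.62 in PparA and 44.0 ± 7.99 in PparDA (CPM, control diet). Its high-fat means were 43.3 ± 12.5 in WT, 42.6 ± 4.92 in PparD, 46.2 ± 14 in PparA and 34.4 ± 8.61 in PparDA, the last being the lowest of the 8. The adjusted p for any difference was 0.82 for Lrig1 and 0.67 for Rgmb, and for both genes all neighbours in the order of groups lay within their SDs.

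Of the secreted products, Olfm4, a glycoprotein abundant in crypt base cells (ENSMUSG00000022026, chromosome 14, 79984081 to 80023139, plus strand), had 4676 to 9118 counts per library. Its control-diet means in CPM were 9900 ± 2130 in WT, 11200 ± 1320 in PparD, 11100 ± 1400 in PparA and 10600 ± 1280 in PparDA. High-fat means were 11200 ± 846 in WT, 11500 ± 1490 in PparD, 9600 ± 636 in PparA and 9940 ± 815 in PparDA, and no neighbours in the order of groups were further apart than the larger of their SDs. Smoc2, a matricellular protein (ENSMUSG00000023886, chromosome 17, 14279506 to 14404790, plus strand), had 46.5 ± 9.69 in WT, 65.6 ± 12.4 in PparD, 49.6 ± 17.4 in PparA and 50.7 ± 8.45 in PparDA under the control diet (CPM). With high fat it had 53.0 ± 6.65 in WT, 61.3 ± 6.15 in PparD, 52.2 ± 2.62 in PparA and 41.8 ± 4.79 in PparDA. In this order of groups a single pair of neighbours, PparD and WT with high fat, lay further apart than the larger of their SDs. The range of Smoc2 in PparDA on the high-fat diet, 35.2 to 46.5 CPM, lay below those of WT (47.3 to 59.4) and PparD (53.7 to 68.6) on the same diet. Of all tested genes 3.87% and 3.88% were lower without overlap in these 2 pairs of groups. The adjusted p for any difference was 0.28 for Smoc2 and 0.64 for Olfm4.

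Slc12a2, a sodium, potassium and chloride cotransporter of the cell membrane (ENSMUSG00000024597, chromosome 18, 57878678 to 57946821, plus strand), held both its extremes in WT. Control-diet means in CPM were 213 ± 47.6 in WT, 169 ± 30.0 in PparD, 163 ± 22.6 in PparA and 179 ± 37.4 in PparDA. When high fat was fed they were 138 ± 25.9 in WT, 152 ± 22.3 in PparD, 185 ± 25 in PparA and 144 ± 37.6 in PparDA. All neighbours in this order lay within their SDs, and the adjusted p for any difference was 0.26.

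Of the nuclear proteins, Ascl2, a Wnt-driven transcription factor that sets stem cell identity (ENSMUSG00000009248, chromosome 7, 142966829 to 142969264, minus strand), had control-diet means of 48.1 ± 7.18 in WT, 52.9 ± 20.6 in PparD, 67.4 ± 14.2 in PparA and 58.7 ± 14.3 in PparDA (CPM). Under high fat these were 38.9 ± 12.2 in WT, 45.8 ± 8.12 in PparD, 56.5 ± 15.5 in PparA and 52.4 ± 13.1 in PparDA, so that PparA was the highest and WT the lowest genotype on each diet. Cdca7, a chromatin-associated protein of dividing cells (ENSMUSG00000055612, chromosome 2, 72476159 to 72486893, plus strand), had 626 ± 66.3 in WT, 716 ± 48.4 in PparD, 716 ± 72.5 in PparA and 614 ± 48.7 in PparDA (CPM, control diet). Its high-fat means were 669 ± 30.7 in WT, 650 ± 38.4 in PparD, 573 ± 75.3 in PparA and 615 ± 24.1 in PparDA. The coefficient of variation within groups was 8.29% for Cdca7, the lowest of the 10 genes, and 26.1% for Ascl2. For both genes neighbours in the order of groups lay within their SDs, and the adjusted p for any difference was 0.47 for Ascl2 and 0.19 for Cdca7.

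Prom1 encodes prominin-1 (CD133), a membrane glycoprotein of cell protrusions (ENSMUSG00000029086, chromosome 5, 43993620 to 44102032, minus strand). Tnfrsf19, also called Troy, is a TNF receptor family member and a Wnt target that associates with Lgr5 (ENSMUSG00000060548, chromosome 14, 60963875 to 61046490, minus strand). The 250 bases before RefSeq starts of these genes (GRCm38.p6) are shown because they are the 2 members called. Such windows were found for 7 of the 10 members, 11 windows in all, and of 2 for Prom1 the outer one is shown. The Prom1 window shown and the inner Tnfrsf19 window lie inside the GENCODE bounds of their genes, and the outer Tnfrsf19 window lies outside those of Tnfrsf19. Each window shown also lies within the span of a non-coding gene on the opposite strand, Gm16401 for Prom1 and Gm41168 for both Tnfrsf19 windows.
Prom1 outer start, chr5:44101737-44101986, minus strand: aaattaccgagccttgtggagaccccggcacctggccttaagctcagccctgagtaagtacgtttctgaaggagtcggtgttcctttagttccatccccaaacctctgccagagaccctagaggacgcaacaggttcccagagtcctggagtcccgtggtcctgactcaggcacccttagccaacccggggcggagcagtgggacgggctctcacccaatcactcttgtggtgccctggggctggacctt
Tnfrsf19 inner start, chr14:61037988-61038237, minus strand: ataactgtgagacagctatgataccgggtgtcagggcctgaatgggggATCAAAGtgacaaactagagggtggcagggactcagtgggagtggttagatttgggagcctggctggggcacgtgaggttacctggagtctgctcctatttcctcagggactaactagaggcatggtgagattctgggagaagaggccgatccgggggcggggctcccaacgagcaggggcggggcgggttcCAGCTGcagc
Tnfrsf19 outer start, chr14:61046856-61047105, minus strand: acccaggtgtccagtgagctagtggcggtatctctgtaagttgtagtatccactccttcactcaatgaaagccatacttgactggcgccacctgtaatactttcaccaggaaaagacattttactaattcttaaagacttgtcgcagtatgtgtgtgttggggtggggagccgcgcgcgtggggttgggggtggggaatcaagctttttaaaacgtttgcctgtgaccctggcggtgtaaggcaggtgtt
Capitals mark matches, on either strand, to CTTTGAT, a form of the motif bound by the TCF proteins of Wnt signalling, and to CAGCTG, an E-box of the kind bound by factors such as Ascl2. The inner Tnfrsf19 window holds both, starting 202 and 10 bases before the start, and the first is on the opposite strand (ATCAAAG). The other 10 windows of the members hold neither. Of 32851 RefSeq windows of this length, 3.205% hold CTTTGAT and 13.001% hold CAGCTG. No member's window holds the strict PPAR direct repeat, AGGTCA written 2 times with 1 base between, which 0.033% of all windows hold. These matches describe letters and are not binding sites.

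Prom1 and Tnfrsf19 were lower in the Ppara-null libraries. Averaged over the Ppard genotype and the diet, Prom1 fell by 0.32 on the log2 scale (SE 0.07, 95% interval -0.46 to -0.17, 0.802-fold, adjusted p = 0.0035). Tnfrsf19 fell by 0.60 (SE 0.18, interval -0.96 to -0.25, 0.658-fold, adjusted p = 0.029). These were 2 of 10 members, both lower, where 7.54% of all tested genes were called and 3.15% were called lower and 4.39% higher. Tnfrsf19 passed the filter on low counts only through the libraries in which it was higher, so its direction is given as a value only. At an unadjusted p under 0.05 there were 4 of 10, the others being Ascl2 and Smoc2, where 19.0% of all genes passed.

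Prom1 means under the control diet were 241 ± 24.2 in WT, 275 ± 41.8 in PparD, 184 ± 28.2 in PparA and 221 ± 26.3 in PparDA (CPM), and those under high fat were 214 ± 17.3 in WT, 212 ± 24.6 in PparD, 154 ± 38.3 in PparA and 199 ± 6.02 in PparDA. PparA was thus the lowest genotype on each diet. The 4 WT libraries on the control diet had 212, 240, 241 and 271 CPM of Prom1. In PparA on that diet they had 147, 178, 201 and 210 CPM, so that the ranges did not overlap, as they did not for 1.92% of all genes in the same direction. PparA stood 0.39 lower on the log2 scale (SE 0.14), with adjusted p = 0.34, so this pair alone was not called. On the high-fat diet WT had 195, 206, 224 and 233 CPM and PparA had 112, 139, 162 and 202 CPM. Here a single PparA library, number 30 at 202 CPM, lay inside the WT range. The difference was -0.48 (SE 0.14, adjusted p = 0.11), and without library 30 it was called with adjusted p = 0.025.

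Among libraries with the Ppard-fl/fl allele, the Prom1 mean of PparDA was below that of PparD on each diet. PparD had 228, 254, 304 and 316 CPM on the control diet and PparDA had 188, 220, 226 and 252 CPM. Fed high fat, PparD had 189, 205, 209 and 247 CPM and PparDA had 191, 201, 203 and 204 CPM, a range that lay within that of PparD. Against WT, PparDA differed by -0.12 ± 0.14 (log2 ± SE) on the control diet and -0.10 ± 0.14 on the high-fat diet (adjusted p = 0.77 and 0.82). Over all genotypes, 12 of 16 Ppara-null libraries lay below the median of the 32 libraries for Prom1, against 4 of 16 others. The split by diet was the same, with 12 of 16 high-fat and 4 of 16 control-diet libraries below it. The share of all genes with splits of this kind was not computed.

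Tnfrsf19 was counted at low depth, 2 to 21 counts per library. It would not have passed the filter on low counts on the Ppara-null libraries alone. It passed through the libraries without the null allele, where it was higher, so its direction is given as a value only. With no such filter its Ppara-null difference in edgeR was -0.61 (adjusted p = 0.029). Its control-diet means in CPM were 23.0 ± 4.81 in WT, 23.7 ± 6.42 in PparD, 17.9 ± 7.02 in PparA and 9.87 ± 4.08 in PparDA, and its high-fat means 12.6 ± 3.61 in WT, 14.7 ± 4.02 in PparD, 11.1 ± 4.28 in PparA and 9.31 ± 4.12 in PparDA. PparDA was the lowest genotype on each diet. WT on the control diet had 17.4, 22.7, 22.9 and 29.2 CPM, and PparDA on that diet had 6.11, 6.58, 13.2 and 13.6 CPM. The PparDA values all lay below those of WT, and also below those of PparD (14.5, 25.1, 26.0 and 29.3 CPM). Of all genes 3.47% and 2.67% were lower without overlap in these 2 pairs. The difference of PparDA from WT was -1.19 (SE 0.34, 0.438-fold, adjusted p = 0.068), short of a call. PparA on the control diet had 12.4, 12.5, 19.7 and 27.1 CPM and overlapped WT.

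On the high-fat diet the 4 genotypes overlapped for Tnfrsf19, with 7.17, 14.1, 14.2 and 14.8 CPM in WT, and 9.89, 13.1, 17.1 and 18.8 CPM in PparD. PparA had 6.48, 8.73, 13 and 16.1 CPM and PparDA had 3.21, 10.9, 10.9 and 12.3 CPM. Over all groups, 13 of 16 Ppara-null libraries lay below the median of the 32 for this gene, against 3 of 16 others.

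**Figure D2:**
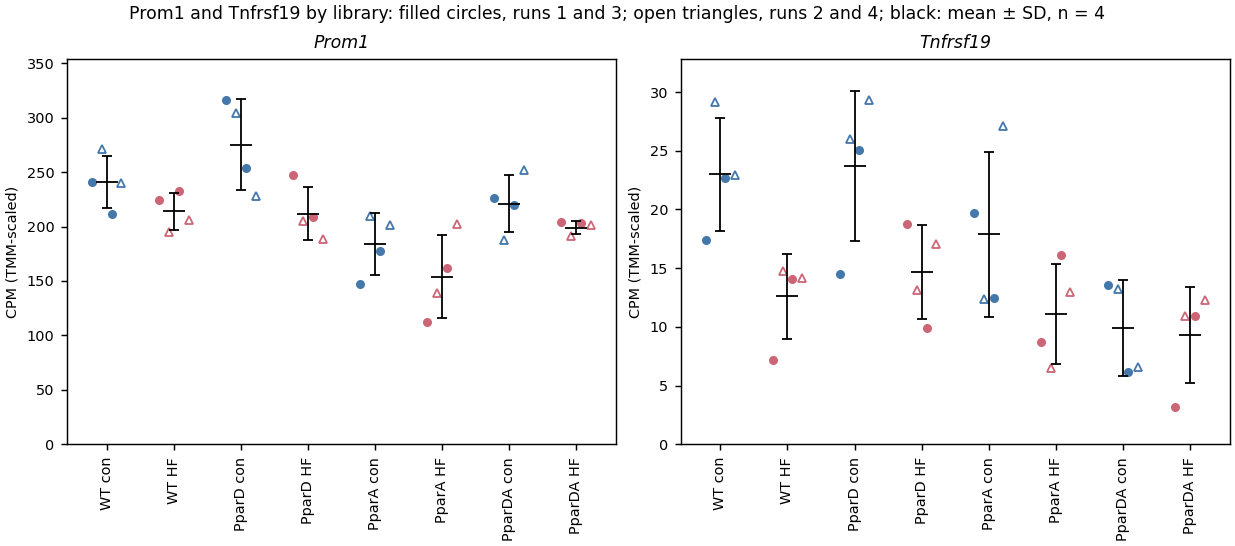
Levels of Prom1 and Tnfrsf19 (y axes, TMM-scaled CPM from 0) by group (x axis; con, control diet; HF, high-fat diet). Each mark is 1 library, filled circles for runs 1 and 3 and open triangles for runs 2 and 4, with mean ± SD of 4 in black. The Prom1 values of PparA on the control diet (147 to 210 CPM) lie below those of WT (212 to 271 CPM).

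The calls differed in how they held. Leaving out any 1 of the 32 libraries kept Prom1 called in the Ppara-null comparison, with adjusted p from 0.00054 to 0.0082. In runs 1 and 3 alone it was -0.43 (adjusted p = 0.043), and in runs 2 and 4 alone -0.20 (adjusted p = 0.36). Without library 4 (PparD, high-fat), 13 (PparA, control), 14 (PparA, high-fat), 23 or 31 (both PparDA, control) Tnfrsf19 was no longer called, with adjusted p from 0.05 (rounded) to 0.054. In runs 1 and 3 Tnfrsf19 was -0.52 (adjusted p = 0.60) and in runs 2 and 4 -0.68 (adjusted p = 0.11), and DESeq2 gave -0.61 with adjusted p = 0.054. For any difference among the groups, Tnfrsf19 was not called without library 9, 11, 17, 19, 23, 27 or 31, all of them from control-diet groups (adjusted p 0.052 to 0.066). In that test neither pair of runs gave a call (adjusted p = 0.091 and 0.57 for Prom1, 0.71 and 0.30 for Tnfrsf19).

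Markers of differentiated cells moved with the same comparison. All 14 enterocyte markers were higher in the Ppara-null libraries and 12 were called, with a median of 1.97 on the log2 scale. Their summed level was 2410 ± 1040 CPM (SD, n = 16; 1250 to 4680) in the Ppara-null libraries and 1530 ± 209 CPM (1200 to 1880) in the others. Apoa1, an apolipoprotein of absorptive cells, rose by 2.57 (SE 0.40, adjusted p = 5e-05) and Sis, sucrase-isomaltase, by 2.67 (SE 0.45, adjusted p = 0.00014). All 9 tested goblet cell markers were higher and 4 were called (Muc2, Zg16, Fcgbp and Clca1). Their sums were 4970 ± 1660 against 3840 ± 1620 CPM and also overlapped, 2500 to 8380 against 1480 to 6580 CPM. Of 11 Paneth cell markers 9 were higher, with 1 called higher (Defa17) and 1 called lower (Mptx2). Mptx2 had 7.68 ± 9.4 against 42.0 ± 62.8 CPM, scarce in the Ppara-null libraries, so its direction is given as a value only. The Paneth sums were 15600 ± 11800 against 10500 ± 10300 CPM and overlapped widely, 2910 to 40700 against 2060 to 43200 CPM. The sum of the 10 stem cell markers was 11500 ± 1200 against 12300 ± 1520 CPM. Most of this sum is Olfm4, with a mean of 10600 CPM over the 32 libraries, so it says little about the other markers.

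In 5 of the 16 Ppara-null libraries the enterocyte sum lay within the range of the other 16. The 4 of them from PparA had 112, 147, 162 and 178 CPM of Prom1, below every library without the null allele (189 to 316 CPM), and the one from PparDA had 191 CPM. These 4 PparA libraries are all from runs 1 and 3, and the PparA libraries of runs 2 and 4 had enterocyte sums of 2490 to 4680 CPM, so among PparA libraries the split by enterocyte sum is also one by run and by Xist level. Of all 16 Ppara-null libraries 6 lay below every other library for Prom1, among them library 14 (PparA, high-fat), with 139 CPM of Prom1 and the highest enterocyte sum, 4680 CPM. For Tnfrsf19 none of the 5 lay below the other 16 libraries. These 5 libraries were picked out after their values were seen and are given as values only. The part of the differentiated cells in either result was not tested.

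**Figure D3:**
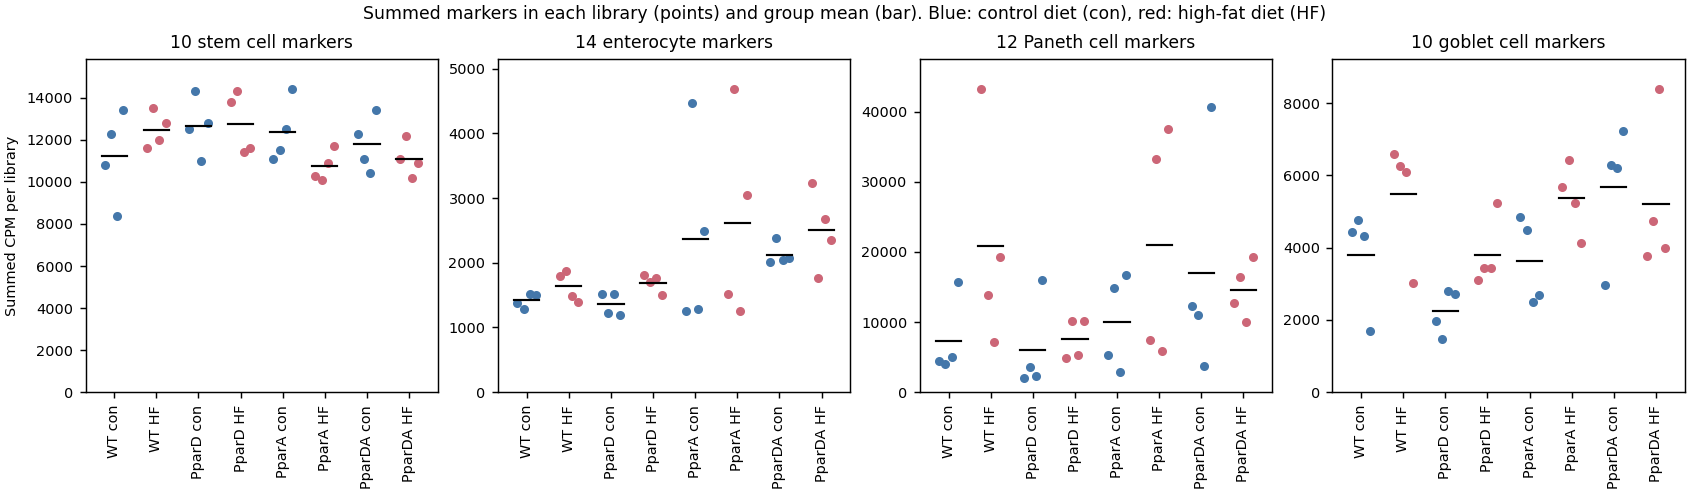
Summed level (y axes, TMM-scaled CPM from 0) of the stem cell, enterocyte, Paneth and goblet cell markers in each library (points) by group (x axis; con, control diet; HF, high-fat diet), with the group mean as a bar. The stem cell sum, most of it Olfm4, stays between 8390 and 14400 CPM, while the enterocyte sum reaches 4680 CPM in PparA.

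The other 8 markers were not called in the Ppara-null comparison. Ascl2 had 58.8 ± 14 CPM in the Ppara-null libraries and 46.4 ± 12.9 CPM in the others (log2 difference 0.34, interval 0.07 to 0.61, adjusted p = 0.12), the opposite direction to Prom1 and Tnfrsf19. Smoc2 had 48.6 ± 9.90 against 56.6 ± 11.1 CPM (-0.21, interval -0.41 to -0.02, adjusted p = 0.21). For Lgr5 the difference was 0.02 with an interval of -0.24 to 0.27. Its direction was opposite in the pairs of runs, with 46.3 ± 8.77 CPM in the Ppara-null libraries against 38.1 ± 9.7 CPM in runs 1 and 3, and 43.1 ± 10.3 against 50.2 ± 11.2 CPM in runs 2 and 4 (SD, n = 8), a difference between runs that was not tested. Cdca7 also changed sides, with means of 651 against 644 CPM and then 609 against 687 CPM. For Olfm4 the difference was -0.09 with an interval of -0.22 to 0.04. The median over the 10 members was -0.09, beside 0.00 over all tested genes.

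**Figure D4:**
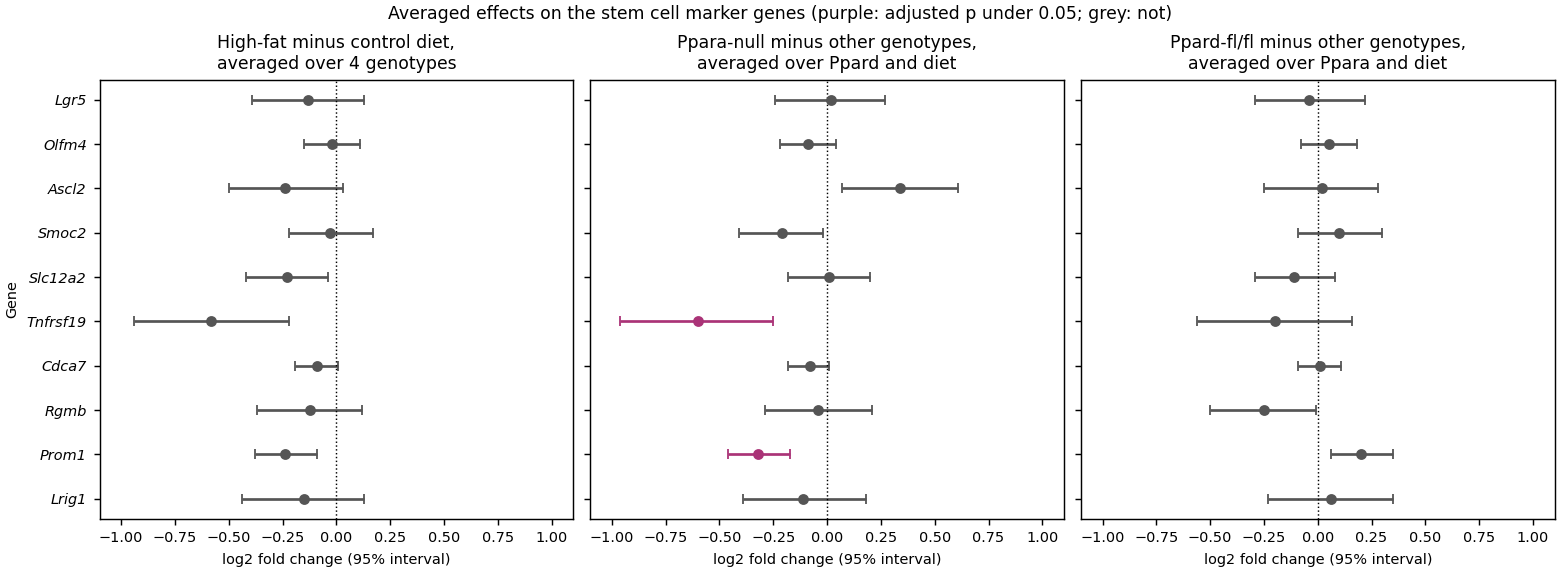
Log2 fold change (x axis) of each marker (y axis) for the diet, the Ppara-null allele and the Ppard-fl/fl allele, each averaged over the other factors; bars are 95% intervals from the edgeR fit. Prom1 and Tnfrsf19 in the Ppara-null panel are the only points drawn as called, at -0.32 and -0.60.

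No marker was called for the high-fat diet. Averaged over the 4 genotypes, all 10 had lower fitted values on the high-fat diet, with a median of -0.14 beside -0.01 over all tested genes, of which 51.7% were lower. The smallest of these were Olfm4 at -0.02 and Smoc2 at -0.03. In single pairs of runs these 2 stood on the other side, Olfm4 with 10200 CPM on the high-fat diet against 9810 CPM in runs 1 and 3, and Smoc2 with 52.4 against 49.8 CPM in runs 2 and 4. The test called 0 of 10 members, where 0.324% of genes were called, and DESeq2 and limma also called 0. At an unadjusted p under 0.05 there were 3: Prom1 (-0.24, interval -0.38 to -0.09, adjusted p = 0.19), Tnfrsf19 (-0.58, interval -0.94 to -0.22, adjusted p = 0.20) and Slc12a2 (-0.23, interval -0.42 to -0.04, adjusted p = 0.44). At that threshold 9.03% of all genes passed. For Olfm4 the interval was -0.15 to 0.11 and for Lgr5 -0.39 to 0.13. Paneth markers were higher on the high-fat diet for 10 of 11 and goblet markers for 9 of 9, with none called. Of 14 enterocyte markers 8 were higher and 1 was called, Fabp2, a fatty acid binding protein, which rose by 0.53 (SE 0.12, adjusted p = 0.033). The part of these cells in the values of the stem cell markers was not tested.

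Within single genotypes the diet called 0 of 10 members each time, where 0.102% of genes were called in WT, 0.0851% in PparD, 0.136% in PparA and 0.0341% in PparDA. DESeq2 and limma also gave 0. In simulated data the diet comparison in WT called 18.0% of 1.5-fold and 40.0% of 2-fold changes. A count of 0 between 2 groups of 4 therefore does not show that levels were equal. At an unadjusted p under 0.05 there were 2 members in WT, 2 in PparD, 1 in PparA and 0 in PparDA. Of all genes 7.66%, 4.99%, 5.79% and 8.79% passed that threshold. Slc12a2 in WT had 162, 186, 238 and 266 CPM with the control diet, against 113, 132, 133 and 174 CPM with high fat. Only the lowest control and the highest high-fat library crossed, and the difference was -0.62 (SE 0.18, interval -1.0 to -0.25, adjusted p = 0.39). Tnfrsf19 in WT did not overlap between diets, with all 4 high-fat values below the lowest control value, as for 2.08% of genes. Its difference was -0.86 (SE 0.33, adjusted p = 0.53). In PparD the 2 were Prom1 (-0.37, adjusted p = 0.80) and Tnfrsf19 (-0.69, adjusted p = 0.94), and in PparA it was Cdca7 (-0.32, interval -0.52 to -0.13, adjusted p = 0.37).

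The difference between a mutant's diet response and that of WT was tested directly, and it called 0 of 10 members for PparD, PparA and PparDA, also with DESeq2 and limma. Of all genes 0.0511%, 0.153% and 0.0% were called. These tests share the WT libraries with each other and with the comparisons to WT. At an unadjusted p under 0.05 there were 3 members for PparA and 0 for the other mutants. Of all genes 8.14% passed for PparA, 3.61% for PparD and 5.76% for PparDA. Slc12a2 in PparA had 144, 147, 170 and 192 CPM with the control diet, against 151, 188, 190 and 211 CPM with high fat. Its diet response was thus 0.18 in PparA and -0.62 in WT, a difference of 0.80 (interval 0.27 to 1.34, adjusted p = 0.38). The other 2 were Cdca7 (-0.42, interval -0.69 to -0.14, adjusted p = 0.36) and Olfm4 (-0.38, interval -0.75 to -0.02, adjusted p = 0.58).

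Set against WT on the same diet, none of the 3 mutants had a called marker. Of all genes 0.204% were called for PparD, 0.562% for PparA and 1.87% for PparDA on the control diet, and 0.017%, 0.749% and 1.57% on the high-fat diet. DESeq2 and limma likewise called 0 of 10 members in all 6 comparisons. The counts at an unadjusted p under 0.05 were 1, 2 and 1 on the control diet and 0, 3 and 0 on the high-fat diet. Of all genes 7.71%, 8.89% and 13.8% passed on the control diet and 3.78%, 11.7% and 13.6% on the high-fat diet. Smoc2 accounts for the PparD count, with 65.6 ± 12.4 CPM against 46.5 ± 9.69 CPM in WT (0.49, interval 0.11 to 0.88, adjusted p = 0.45). Slc12a2 in PparA stood on opposite sides of WT by diet, at -0.38 on the control diet and 0.42 on the high-fat diet (adjusted p = 0.55 and 0.36).

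The Ppard-fl/fl allele, averaged over the Ppara genotype and diet, called 0 of 10 members with edgeR, DESeq2 and limma, where 0.954% of genes were called with edgeR. At an unadjusted p under 0.05 there were 2, where 12.3% of all genes passed. Prom1 had 227 ± 38.8 CPM with the allele and 198 ± 42.0 CPM without it (0.20, interval 0.06 to 0.35, adjusted p = 0.17), the opposite sign to its Ppara-null difference. Rgmb had 39.8 ± 9.27 against 47.3 ± 10.9 CPM (-0.25, interval -0.50 to -0.01, adjusted p = 0.39).

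Further genes of these cells and pathways were read from set lists, beside the 7.54% of all genes called in the Ppara-null comparison. Of 25 tested genes in a further stem cell signature, 0 were called for the diet, and 3 were called lower and 0 higher in the Ppara-null libraries, with a median of -0.01. Scn2b, a sodium channel subunit, was among these 3 but passed the filter on low counts only through the other libraries. Its direction is therefore given as a value only, with 3.04 ± 3.42 CPM in the Ppara-null libraries and 13.5 ± 4.22 CPM in the others (-2.31, SE 0.34). Slc14a1, a urea transporter, had 29.9 ± 10.4 against 52.0 ± 15.6 CPM (-0.82, SE 0.16, adjusted p = 0.001). The third, Kcne3, a potassium channel subunit, was -0.24 (SE 0.08, adjusted p = 0.05 after rounding). Of the 25 genes, 12 were higher and 13 lower in the Ppara-null libraries. The Wnt targets Axin2 (0.04) and Sox9 (0.08) had adjusted p of 0.92 and 0.83.

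The pathway partners of the markers were mostly not called. None of 6 tested genes of the Wnt and R-spondin receptor complex was called in the Ppara-null or diet comparison, among them Lgr4, a second R-spondin receptor (0.17, adjusted p = 0.61), and Rnf43, a ligase that removes Wnt receptors (0.06, adjusted p = 0.83). Of 5 tested genes of BMP signalling, Id3, a BMP target, rose in the Ppara-null libraries (20.5 ± 4.19 against 14.3 ± 5.0 CPM, 0.52, SE 0.15, adjusted p = 0.03), and the others were not called. None of 4 Notch pathway genes and neither of 2 genes of the ErbB list was called in these comparisons. Of 15 proliferation genes 1 was called, the cyclin Ccnb1, which fell by 0.25 in the Ppara-null libraries (SE 0.07, adjusted p = 0.038). The marker Cdca7 and the proliferation gene Mki67 had Ppara-null differences of -0.08 and 0.16 (adjusted p = 0.37 and 0.40).

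Few pairs of the 10 markers were called as correlated across libraries, and for several markers counting error limits r. Median counts per library were 9.5 for Tnfrsf19, 18 for Lrig1 and 28 for Lgr5, so a low r does not show that markers vary apart. Of 45 pairs, 30 had a positive Pearson correlation of log2 CPM over the 32 libraries, with a median r of 0.13. By a permutation test with Benjamini-Hochberg adjustment over the 45 pairs, 3 were called by r and 4 by Spearman's rho. Slc12a2 and Rgmb had r = 0.67 (rho = 0.66, permutation p = 5e-05 and 0.00012, adjusted p = 0.0022 and 0.0054). Without the 2 libraries farthest from the median of Slc12a2, r was 0.61, and within runs 1 and 3 and within runs 2 and 4 it was 0.62 and 0.74. With group means removed r was 0.69.

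Tnfrsf19 and Cdca7 had r = 0.56 (rho = 0.57, permutation p = 0.001 and 0.00083, adjusted p = 0.023 and 0.012), 0.57 without the 2 farthest libraries, 0.31 in runs 1 and 3 and 0.77 in runs 2 and 4. Olfm4 and Cdca7 had r = 0.52 (rho = 0.57, permutation p = 0.0027 and 0.00076, adjusted p = 0.04 and 0.012), 0.52 without the 2 farthest, and 0.42 and 0.76 within the run pairs. With group means removed these 2 pairs were no longer called (r = 0.50 and 0.38, adjusted p = 0.083 and 0.20). With group and run means removed, r was 0.51 for Tnfrsf19 and Cdca7 and 0.58 for Olfm4 and Cdca7. The permutation test gave p = 0.0027 and 0.00054 (adjusted p = 0.041 and 0.012). It shuffled the remaining values as if no means had been removed, so these p are too small and neither pair is counted as called. Lgr5 was in none of the 3 pairs, and the called genes Prom1 and Tnfrsf19 had r = 0.33.

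**Figure D5:**
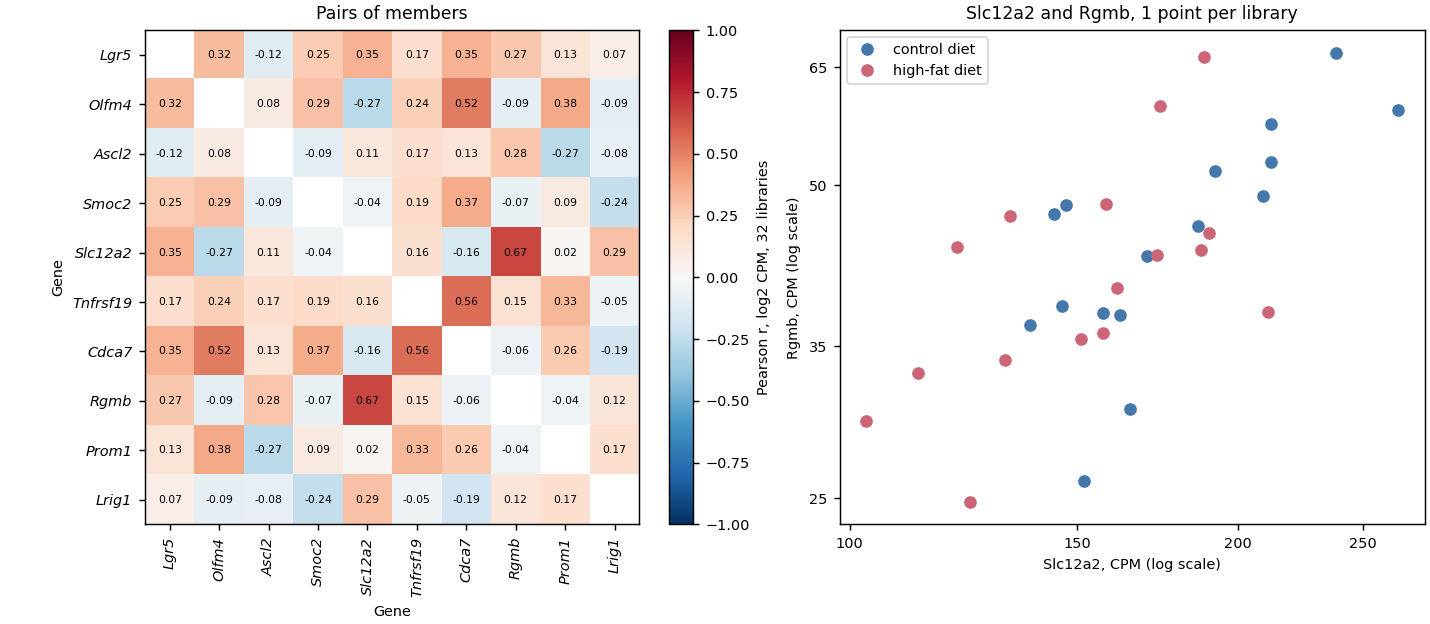
Left, Pearson r of log2 CPM over 32 libraries for every pair of the 10 markers (colour scale from -1 to 1, values printed). Right, Slc12a2 against Rgmb (CPM, both axes on a log scale), 1 point per library coloured by diet, the pair with the highest r at 0.67.

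Among 5255 tested genes averaging 10 CPM or more, those most like Lgr5 across the 32 libraries were Acpp (r = 0.70, rho = 0.74), Chd6 (0.68 and 0.70), Sorbs2 (0.58 and 0.48), Efna1 (0.58 and 0.59) and Ccndbp1 (0.57 and 0.55). For Olfm4 they were Morc3 (0.71 and 0.71), Rpl13 (0.65 and 0.58), Atp5d (0.65 and 0.56), Sptssa (0.64 and 0.62) and Ncald (0.63 and 0.50). Without the 2 libraries farthest from the median, r was 0.54 to 0.65 for the Lgr5 list and 0.48 to 0.62 for the Olfm4 list. None of the other 9 markers was among the 5 genes most like Lgr5. These genes were chosen for their r, so no test is given.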

How the data were processed

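Gene levels of 32 libraries came from a table of expected counts that the authors deposited, all whole numbers, and a deposited table of log2(CPM + 1) values, used only for an alternative test. Tools listed in the submitters' processing notes are R 4.0.2, edgeR 3.30.2 and Salmon 1.1.0, with the build mm10. The sources used here give neither molecular identifiers nor an annotation release. Estimated counts near the 3′ end can split or share reads between overlapping genes, and intervals from reads without identifiers cover counting error and sample spread only.

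Group and number of each library were read from the column names. Identifiers were matched to GENCODE M21 (54166 of 54418). Genes passing filterByExpr (minimum count 10, minimum total 15) were fitted in edgeR 4.0.16 (R 4.3.3) by the quasi-likelihood test, 1 coefficient per group over all 32 libraries, with TMM factors of 0.942 to 1.07. Tests of the 17 comparisons are two-sided, with Benjamini-Hochberg adjustment over all 5872 genes, and a call is an adjusted p under 0.05. SE is the size of the log2 fold change over the square root of F. The biological coefficient of variation was 21.7%. Alternatives were DESeq2 1.42.0, limma 3.58.1 (trend), other scalings and filters, runs as a block, and each library left out. Correlations used 100000 permutations. The fit was tested on simulated data. For the diet in WT it called 18.0% of 1.5-fold and 40.0% of 2-fold changes. For the diet averaged over genotypes it called 65.0% and 94.0%. By Xist and Ddx3y each group holds libraries of both sexes, so from at least 2 animals. Whether all 4 are separate animals is not stated, and p measures the spread between these samples, which may be technical in part.

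All 10 members are named. From other lists at most 4 genes with the smallest p for any difference were eligible. For Lgr5 and Olfm4 the 5 named genes with the highest r are given. Apart from these, Axin2, Sox9, Kcne3, Sis, Fabp2, Mki67, the likeness genes of Prom1 and Tnfrsf19 and the 5 libraries set beside the enterocyte sums were singled out after their values were seen. Members, lists and comparisons were chosen with earlier results of these data known. Sequences are from RefSeq (GRCm38.p6); 3 members had no matching window.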

Additional observations from a re-analysis of the deposited data

Results flagged for a closer look

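In 7 of 80 sets of 4 libraries, 1 library stood apart from the other 3 by Dixon's test, its gap to the nearest other taking up more of the range than the 95% critical value allows. Chance alone marks about 1 set in 20. Tnfrsf19 was low in WT on the high-fat diet in library 2, at 7.17 CPM beside 14.1 to 14.8. It was also low in PparDA on the high-fat diet in library 8, at 3.21 CPM beside 10.9 to 12.3. Lgr5 was at 29.7 CPM in library 16 of PparDA on the high-fat diet, beside 41.9 to 43.3. Ascl2 was at 57.9 CPM in library 20 of PparD on the high-fat diet, beside 40.7 to 43.3. Smoc2 was at 84.2 CPM in library 3 of PparD on the control diet, beside 58.7 to 60.5. Lrig1 was at 17.6 CPM in library 15 of PparDA on the control diet, beside 28.7 to 29.6, and at 37.3 CPM in library 14 of PparA on the high-fat diet, beside 16.2 to 19.3.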

How the results depend on the processing

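The number of markers called for Ppara-null, 2, was 1 with a minimum of 20 counts in 4 libraries (Tnfrsf19 was then not tested), 1 with DESeq2, 1 in runs 1 and 3 alone, 0 in runs 2 and 4 alone, and 1 to 2 when leaving out 1 library. For any difference among the 8 groups, 2 became 1 with that filter, 0 in runs 1 and 3, 0 in runs 2 and 4, and 1 to 2 without 1 library. PparA against WT on the high-fat diet, 0, ranged from 0 to 1 without 1 library. Each pair of runs has 2 libraries per group, fewer samples. Called correlations, 3, became 1 with group means removed and were 3 with group and run means removed. The permutation did not allow for the removed means, so these last counts may be too high. With the run as a replicate block, Prom1 was -0.32 (adjusted p = 0.0039) and Tnfrsf19 -0.60 (adjusted p = 0.024) for Ppara-null, and the counts of calls stayed at 2 and 2. Same-run libraries deviated together in 84 of 112 pairs (r over 0.1; median 0.15), and 31 of 32 libraries lay closest to their own run, a hint from the data and not the design. Among the alternatives of single members with an unadjusted p under 0.05 none changed sign. The other members were not carried through them, and the levels of Lgr5, Cdca7, Olfm4 and Smoc2 changed sides between pairs of runs. The low counts of Tnfrsf19, 2 to 21 per library, limit its precision.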

Other observations

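The genes closest to the called markers in their pattern over the 32 libraries were looked up after the values were seen. For Prom1 they were Ggh, gamma-glutamyl hydrolase (r = 0.67, rho = 0.66), and Ptgr1, prostaglandin reductase 1 (r = 0.66, rho = 0.59). For Tnfrsf19 they were Nuf2, a kinetochore protein (r = 0.72, rho = 0.59), and Lta4h, leukotriene A4 hydrolase (r = 0.61, rho = 0.59). They were chosen for their r, with no test.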
